A study of Mus musculus with 8 samples.

Results

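Ach2 is the smaller of the 2 subtypes of stellate ganglion neurons that carry a cholinergic name in the deposited annotation, and its 62 neurons were taken by that name. They are 46 of the 1002 neurons of 5 mice that match a sample and 16 of the 301 of the others, in all 4.76% of the neurons (exact 95% Clopper-Pearson interval 3.67 to 6.06). The neurons came from the left and right stellate ganglia of male C57BL/6J mice aged 8 to 10 weeks, of 1 condition in 8 samples, and no untreated group is among them. Every mouse had received AAV2/retro virus with a GFP sequence in the heart and with a tdTomato sequence in the front paws. The methods list both under the CAG promoter in a Cre-dependent (flex) form and name no Cre for the C57BL/6J mice. For heart sections they name a CAG GFP virus without flex, and the form used in the sequenced mice is not stated. Single cells were read on the 10x Chromium system, and the values below are UMIs, which count captured RNA molecules, per 10000 UMIs of a neuron. The comparison asks in which genes Ach2 differed from the noradrenergic neurons of the same ganglia, named NA1a (316 neurons), NA1b (311), NA1c (239), NA2 (175) and NA3 (99).

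Most postganglionic sympathetic neurons release noradrenaline, and a minority release acetylcholine. The cholinergic ones are best known for innervating sweat glands in the paw and the periosteum of bone, and typically use vasoactive intestinal peptide beside acetylcholine. Acetylcholine is made by choline acetyltransferase (Chat), packed into vesicles by the vesicular acetylcholine transporter (Slc18a3) and renewed from choline that Slc5a7 takes up. Noradrenaline is made from tyrosine through Th, Ddc and Dbh, packed by Slc18a2 and taken back up by Slc6a2.

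Of the 8 mouse names of the neurons, 5 each match 1 sample. These 5 mice, replicates 1 to 5, held 13, 5, 6, 17 and 5 Ach2 neurons, which is 7.65%, 2.13%, 3.64%, 7.23% and 2.54% of their neurons, with a mean of 4.64% ± 2.62 (SD, n = 5). The 3 other names match no single sample, and their 16 Ach2 neurons (of 301 neurons) entered pooled values only. They are given below as the unmatched neurons. The study's supplement places its mice in 2 batches, and the 5 matched names are all of batch 2. The supplement's 3 other mice are of batch 1, and their names end in the same numbers as the 3 unmatched names. The unmatched neurons are thus most likely batch 1, though no label of the neurons states it. A contrast of matched with unmatched neurons therefore cannot be told apart from one of batches. Replicates 1 and 4 were the only matched mice with at least 10 Ach2 neurons, so the spread between mice of a gene rests on 2 mice.

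Some cell barcodes occurred in more than 1 library. In all, 73 neurons shared 21 barcodes, and 55 of them were NA2, 15 Ach2 and 3 Glut, a glutamatergic subtype. The 15 Ach2 neurons carried 4 barcodes, all lay in the 5 matched mice (3, 3, 4, 4 and 1 neurons in replicates 1 to 5) and held 1691 to 2801 UMIs each. The correlation over genes differed little between Ach2 neurons with the same barcode and those with different shared barcodes. The median correlation of their values over genes was 0.489 in 23 pairs with the same barcode, 0.466 in 82 pairs with different shared barcodes and 0.330 in 10 pairs of unshared neurons of the same depth. The 5 neurons of 1 barcode, 1 in each library, held 36, 31, 32, 29 and 30 UMIs of Vip. The Ach2 neurons of the other 3 barcodes held 7 to 19, 19 to 32 and 6 to 7. The last of these barcodes also occurred in replicate 1 on a neuron named NA2. That neuron held 3 UMIs of Vip, 4 of Cartpt and 1 of Slc18a3 and entered the noradrenergic side of the comparison. Whether these are the same cells read in several libraries was not tested. Replicates 1 and 4 both held Ach2 neurons of the same 3 barcodes, so the 2 profiles behind the calls below may not be independent. Results below are therefore also given without shared barcodes, which leaves 47 Ach2 neurons (10, 2, 2, 13 and 4 in replicates 1 to 5 and 16 unmatched) and a mean share of 3.41% ± 2.74 (SD, n = 5).

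In replicate 5, the few unshared neurons largely lacked the genes of the label. Of its 5 Ach2 neurons, the 4 with an unshared barcode had no UMI of Chat, Slc18a3, Slc5a7, Cartpt or Sst, and only 2 of the 4 had a UMI of Vip. The 2 Ach2 neurons of all 62 without any UMI of Vip, Slc18a3 and Chat both belong to this mouse. Replicate 2, also with 5 Ach2 neurons, had no UMI of Slc18a3 or Slc5a7 in any of them.

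Ach2 neurons held a median of 4414.5 UMIs (1691 to 18633) and 2046 genes, against medians of 6524.5 UMIs in NA1a, 3252 in NA1b, 2685 in NA1c, 2461 in NA2 and 6773 in NA3. By mouse, the Ach2 medians were 2975, 1970, 2268, 5236 and 2803 UMIs in replicates 1 to 5, and 5319 in the unmatched neurons. Within mice, the log2 median was lower than in NA1a in 5 of 5 mice, by a mean of 1.52 ± 0.55 (SD, n = 5), with p = 0.0625 in an exact two-sided sign-flip permutation test (adjusted p = 0.208 over 5 comparisons). This is the smallest p that 5 mice allow, so the test could not pass 0.05. The mean differences from NA1b, NA1c, NA2 and NA3 were -0.71 ± 0.64, -0.03 ± 0.54, 0.16 ± 0.75 and -1.39 ± 1.22 (SD, n = 5), with exact adjusted p = 0.208, 0.9375, 0.9375 and 0.208 by the same test. No order of depth between Ach2 and these 4 subtypes can be read from them. Without shared barcodes, replicates 1 and 4 alone kept at least 5 Ach2 neurons, and their mean difference from NA1a was -0.30.

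The markers of the label were seen unevenly. Vip, which codes for vasoactive intestinal peptide, had a UMI in 60 of 62 Ach2 neurons (96.8%, exact 95% interval 88.8 to 99.6). Slc18a3 had one in 33 (53.2%, 40.1 to 66.0) and Chat in 20 (32.3%, 20.9 to 45.3). Among the 1140 noradrenergic neurons, Vip had a UMI in 143, Slc18a3 in 14 and Chat in 1. Other cell types of the ganglion were not analysed here, and the noradrenergic neurons stand in for a cell type that should lack these genes. For Vip, 9.71% to 25.3% of the neurons of a noradrenergic subtype had a UMI, at the median depths above. After each neuron was thinned to 2000 UMIs, which leaves out 8 of the 62 Ach2 neurons as shallower, the shares in Ach2 were 88.9% for Vip (48 of 54 neurons), 37.0% for Slc18a3 and 13.0% for Chat (7 of 54), and the share for Vip in the noradrenergic subtypes was 4.44% to 11.1%. Vip was thus near universal in Ach2 at either depth, and Chat was found in a minority.

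The 3 markers overlapped unevenly from neuron to neuron. All 3 had a UMI in 12 Ach2 neurons, 2 of them in 29, 1 in 19 and none in 2. Slc18a3 was seen without Chat in 21 neurons and Chat without Slc18a3 in 8. At least 1 of Chat, Slc18a3 and Slc5a7 was seen in 42 of the 62 neurons, at least 2 in 29 and all 3 in 7. The 20 neurons with none of the 3 were shallower, with a median of 2628 UMIs against 5465.5, and the part of depth in this difference was not tested. Of the 47 neurons with an unshared barcode, 35 had at least 1 of the 3 genes. The unmatched neurons, which had the higher depth, had at least 1 in 15 of 16, and the matched ones in 27 of 46.

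A gene was called higher in Ach2 where 2 conditions held. The first was a difference of at least 1 between log2 of the pooled Ach2 level plus 0.1 and log2 of the mean level of the 5 noradrenergic subtypes plus 0.1, called the log2 difference below. The second was that replicates 1 and 4 lay above all 23 profiles of noradrenergic subtypes with at least 10 neurons in a matched mouse. The unmatched noradrenergic neurons entered pooled levels only, so overlap with them was not checked. Genes were called lower in the same way. The call describes the size and the overlap and carries no p-value, because the subtypes were clustered on these same genes and because 2 mice cannot go below p = 0.5 in an exact sign-flip test. Of 9554 genes tested, 89 were called higher (0.932%) and 67 lower (0.701%), and the median log2 difference of all of them was -0.06. Of the 89, 31 passed the filter on low values only through Ach2, with a noradrenergic mean under 0.1 UMIs per 10000, and could not have been called lower. Without shared barcodes, 9593 genes were tested, with 115 called higher (1.2%) and 70 lower (0.73%), and 62 of the 89 and 41 of the 67 were called both ways.

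**Figure D1:**
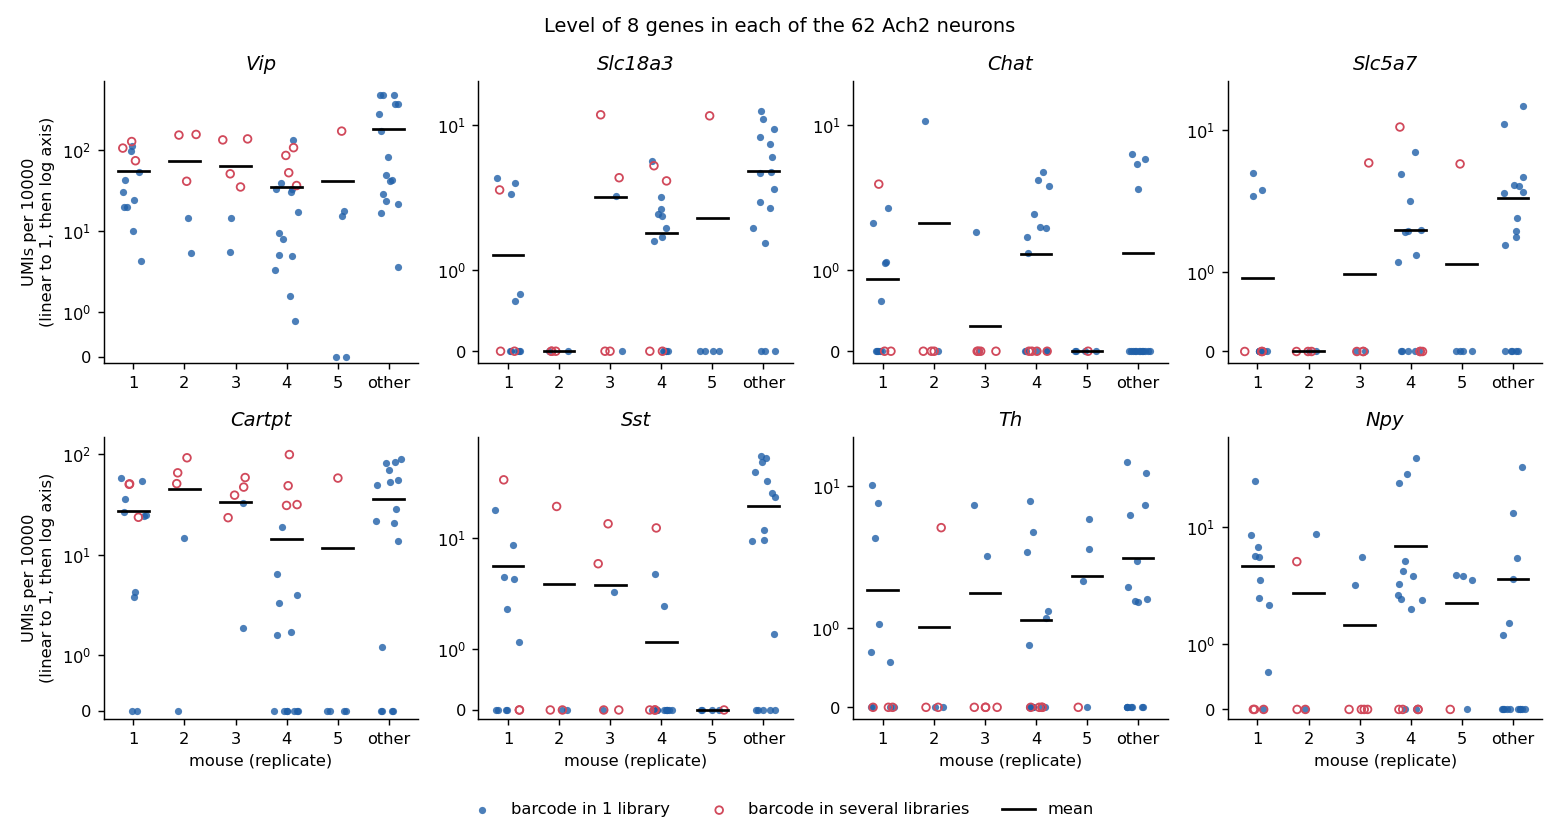
Level of 8 genes in each Ach2 neuron by mouse (1 to 5 are replicates, other is the 16 neurons of unmatched mouse names), in UMIs per 10000 on an axis that is linear up to 1 and logarithmic above. Open red circles are neurons whose barcode occurs in several libraries and bars are means. Vip reaches a mean of 184 in the unmatched neurons and stays at 74.7 or below in every matched mouse, while the levels of Slc18a3, Chat and Slc5a7 are low throughout.

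Of the 11 genes for acetylcholine synthesis, storage and breakdown, 10 passed the filter on low values, 3 were called higher and none lower, and their median log2 difference was 0.76. These 3 and Prima1 passed only through their level in Ach2 and could not have been called lower. The 3 are the genes specific to cholinergic transmission, and all 3 kept the call without shared barcodes. Slc18a3 stood at 1.27, 0, 3.21, 1.81 and 2.31 UMIs per 10000 in replicates 1 to 5 and at 4.79 in the unmatched neurons. The noradrenergic subtypes stood at 0.0136 to 0.0562, and their highest mouse profile at 0.259. Replicates 1 and 4 lay above it and replicate 2, with 5 neurons, at 0, and the log2 difference was 4.26 with and without shared barcodes. Slc5a7, the high-affinity choline transporter, stood at 0.934, 0, 0.977, 2.00 and 1.15 in replicates 1 to 5 and 3.34 in the unmatched neurons, against at most 0.427 in a noradrenergic profile (log2 difference 3.66). Chat stood at 0.892, 2.11, 0.307, 1.30 and 0 in replicates 1 to 5 and 1.32 in the unmatched neurons, and every noradrenergic profile was at 0. The 62 Ach2 neurons held 40 UMIs of Chat and the 1140 noradrenergic neurons 1, a ratio of 767 relative to their total UMIs with a counting interval of 130 to 31038. So few noradrenergic UMIs do not fix the size of the ratio. The log2 difference of 3.54 depends on the added 0.1.

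Slc18a3 lies within the first intron of Chat on the same strand, an arrangement known as the cholinergic gene locus. In the GENCODE annotation of GRCm38, Slc18a3 spans chr14:32462438-32464850 on the minus strand, and intron 1 of the transcript Chat-201 spans 32460914 to 32465806 of a gene that runs from 32408203 to 32465989. How reads in this overlap were assigned is not given in the sources used here, so the levels of the 2 genes are uncertain relative to each other.

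The other genes of acetylcholine handling are shared with many cells and were not called. Ache, which breaks acetylcholine down, stood at 3.85 in Ach2 and at 1.61 to 3.62 in the noradrenergic subtypes (log2 difference 0.44). Prima1 and Colq, which anchor that enzyme, had log2 differences of 1.39 and 0.82, and Acly, which supplies acetyl-CoA, one of 0.70. The choline transporter-like genes Slc44a1 and Slc44a2 and the phosphocholine enzyme gene Pcyt1a stood at -0.06, -0.74 and -0.28. Bche did not pass the filter.

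UMIs of noradrenaline genes were also seen in Ach2, at lower levels than in the noradrenergic subtypes for some steps. Free RNA of the many noradrenergic neurons can give such UMIs, no cell type that lacks these genes was analysed here, and its part in them was not tested. Of 13 genes of noradrenaline synthesis, storage, uptake and breakdown, 5 were called lower and none higher, and the median log2 difference was -1.14. Slc6a2, the noradrenaline transporter, differed most in size. It stood at 2.37, 0, 1.03, 1.63 and 2.33 UMIs per 10000 in replicates 1 to 5 and 1.62 in the unmatched neurons, against 13.3, 17.2, 14.6, 15.3 and 8.83 in NA1a, NA1b, NA1c, NA2 and NA3. All 5 matched mice lay below the lowest noradrenergic profile of 7.34, and the log2 difference was -2.995, or -2.78 without shared barcodes. Ddc, the decarboxylase of the pathway, stood at 0.878, 1.17, 1.94, 1.15 and 1.92 in replicates 1 to 5, against 2.54 to 8.25 in the noradrenergic subtypes (log2 difference -1.89, or -1.64 without shared barcodes). Its lowest noradrenergic profile was 1.88, so that replicates 3 and 5 lay within the noradrenergic range. Without shared barcodes, replicates 2 and 3, with 2 neurons each, stood at 2.92 and 3.57.

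Th, the rate-limiting enzyme, stood at 1.87, 1.02, 1.77, 1.14 and 2.31 in replicates 1 to 5 and 3.13 in the unmatched neurons. NA1a, NA1b, NA1c, NA2 and NA3 stood at 5.86, 6.83, 6.19, 8.57 and 2.97, and the lowest noradrenergic profile at 2.34. The 5 matched mice lay below that profile and the unmatched neurons did not, with a log2 difference of -1.59. Without shared barcodes the call was lost, since replicate 1 then stood at 2.43 and the difference was -1.29. Th still had a UMI in 27 of 62 Ach2 neurons (43.5%, 31.0 to 56.7), against 971 of 1140 noradrenergic neurons, and after thinning in 27.8% against 43.3% to 76.6% by subtype. A UMI of Th occurred with at least 1 of the 3 cholinergic genes in 19 Ach2 neurons.

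Dbh, which makes noradrenaline from dopamine, was not called. It stood at 7.11, 4.69, 5.74, 3.42 and 3.74 in replicates 1 to 5, against 6.38 to 12.5 in the noradrenergic subtypes (log2 difference -0.74), and the groups overlapped. It had a UMI in 50 of 62 Ach2 neurons (80.6%, 68.6 to 89.6), and 36 neurons had a UMI of Dbh and of at least 1 cholinergic gene. The vesicular monoamine transporter gene Slc18a2 stood at 1.22 against 4.11 to 11.1, a log2 difference of -2.57, but replicate 4 at 2.05 reached the lowest noradrenergic profile of 2.03. It was called lower without shared barcodes (-2.42). Maob and Maoa, which break monoamines down, were called lower at -1.87 and -1.14, and Maoa lost the call without shared barcodes. Gch1, for the cofactor of Th, stood at -1.17 and was not called, but was called lower without shared barcodes and with summed UMIs. The count of 5 genes was thus the same without shared barcodes, with Slc18a2 and Gch1 in place of Th and Maoa.

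**Figure D2:**
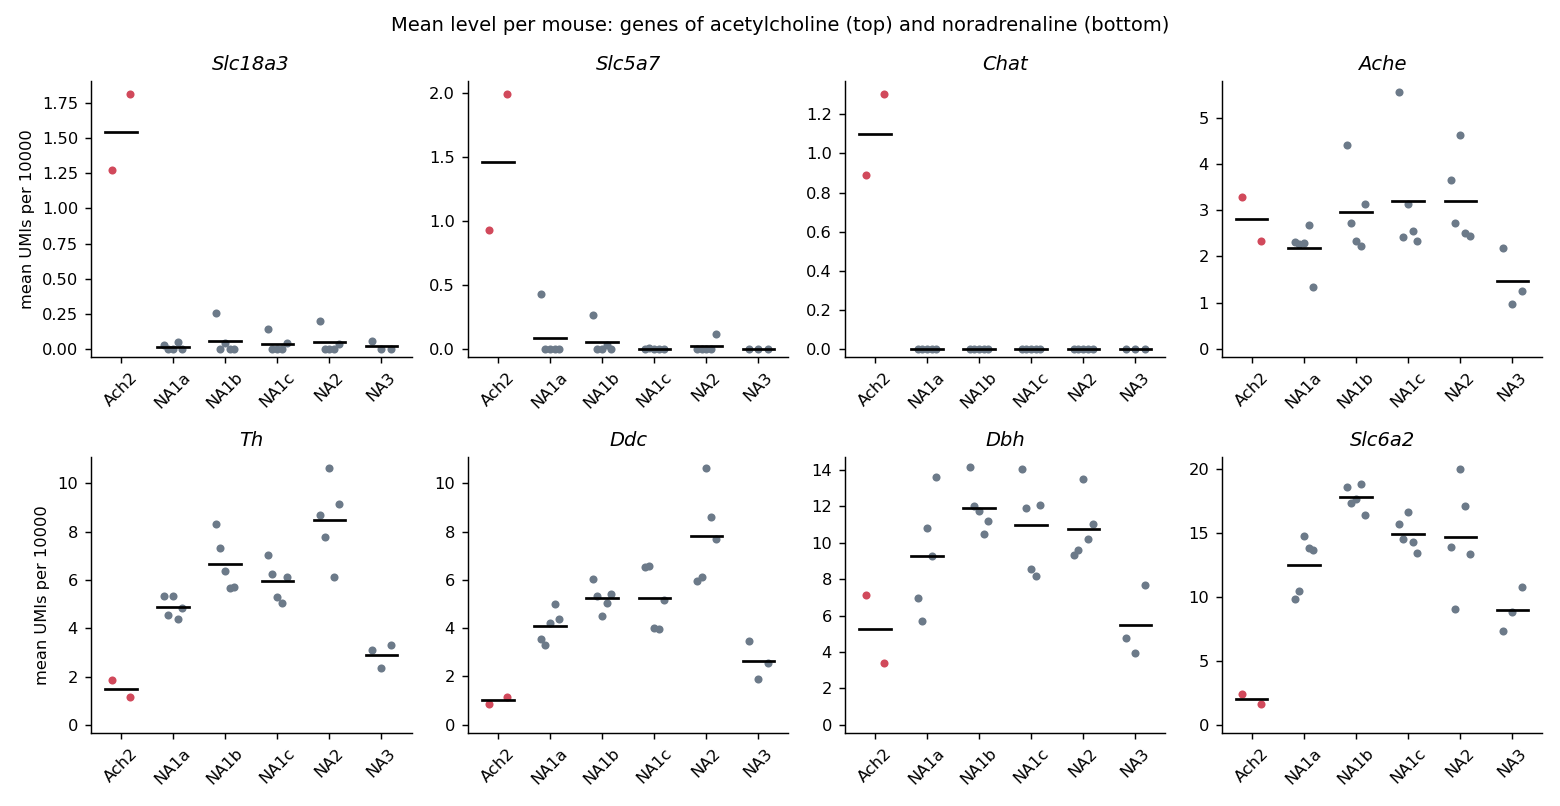
Mean level per matched mouse, in UMIs per 10000, of 4 acetylcholine genes (top) and 4 noradrenaline genes (bottom) in Ach2 (2 mice with at least 10 neurons) and in the noradrenergic subtypes. The 2 Ach2 mice lie above every noradrenergic mouse for Slc18a3, Slc5a7 and Chat, below every one for Th, Ddc and Slc6a2, and among them for Ache; for Dbh 1 of the 2 lies among them.

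The genes with the 4 highest log2 differences of all 9554 code for peptide precursors. Of 30 neuropeptide genes listed, 26 were measured and 10 passed the filter, and of these 5 were called higher and none lower. Of the 5, Sst, Calca and Calcb passed the filter only through their level in Ach2, so that they could only come out higher and the count is no support. Vip stood at 55.8, 74.7, 63.3, 35.6 and 41.2 UMIs per 10000 in replicates 1 to 5 and at 184 in the unmatched neurons, against 0.309 to 1.23 in the noradrenergic subtypes and at most 2.54 in a noradrenergic profile. Without shared barcodes these mice stood at 41.6, 9.94, 10.0, 24.7 and 8.20, so that most of the level of replicates 2, 3 and 5 came from the shared ones. The log2 difference was 6.82, and 6.59 without shared barcodes. Single neurons ran from 0 to 481 with a median of 35.9. Cartpt, the precursor of the CART peptide, stood at 27.3, 44.4, 33.6, 14.4 and 11.5 in replicates 1 to 5 and 35.3 in the unmatched neurons, against 0.11 to 0.29 in the noradrenergic subtypes (log2 difference 6.68). Without shared barcodes it stood at 23.1, 7.30, 17.1, 2.74 and 0, and the log2 difference was 6.22. In replicate 5 a single neuron with a shared barcode gave the whole level.

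Sst, the somatostatin precursor, stood at 5.57, 3.87, 3.76, 1.15 and 0 in replicates 1 to 5 and 19.4 in the unmatched neurons, and no noradrenergic subtype exceeded 0.0329. It had a UMI in 25 Ach2 neurons, the median neuron was at 0 and the highest at 54.9, and the log2 difference was 6.04. Without shared barcodes it stood at 3.88, 0, 1.62, 0.555 and 0 in the 5 mice. Calca, the precursor of calcitonin and CGRP, stood at 4.69, 8.75, 5.99, 2.72 and 0 in replicates 1 to 5, with a UMI in 26 Ach2 neurons and in 3 noradrenergic neurons. Without shared barcodes it stood at 1.82, 0, 0, 0.675 and 0, the pooled level was 1.79 in place of 3.93, and the log2 difference was 4.01 in place of 5.10. The related Calcb had a log2 difference of 3.09 (2.44 without shared barcodes, when it no longer passed the filter). The neurons of 1 shared barcode alone held 7, 8, 6 and 6 UMIs of Calca and 6, 4, 3 and 3 of Sst.

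The peptides of noradrenergic neurons were at the low end of the range in Ach2. Npy, a vasoconstrictor co-released with noradrenaline, stood at 4.62, 2.77, 1.46, 6.91 and 2.26 in replicates 1 to 5 and 3.59 in the unmatched neurons, against 65.7, 10.5, 43.1, 42.6 and 17.8 in NA1a, NA1b, NA1c, NA2 and NA3. The log2 difference was -3.02, but replicate 4 exceeded the lowest noradrenergic profile of 6.36, so that Npy was not called. The pooled Ach2 level was nearest to that of NA1b. Gal, the galanin precursor, stood at 1.65 against 3.42 to 21.4 (log2 difference -2.61) and was not called either. Penk, Nppc, Nmu, Nts, Cck, Crh, Cort, Edn1 and Npff had no UMI in the 62 neurons, which held 333521 UMIs, so that levels up to 0.0899 UMIs per 10000 (3 counts over the group) are allowed.

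Among the 15 called genes with the highest differences, Cartpt, Sst, Pdlim3 and Areg hold TGACGTCA, the palindromic form of the cAMP response element. It lies in the 250 bases before their RefSeq start. These letters were searched on both strands of GRCm38.p6, together with TGACGT, which overlaps them. Only the 6 of the 15 genes with a match of either form are shown, and the window of Th for comparison. They are given 5′ to 3′ on the strand of the gene, with the match in capitals. The lines give the gene, its window and strand, and how many bases before the start the match begins. In the GENCODE annotation of GRCm38, Cartpt and Sst begin further upstream, and their matches lie inside the annotated genes.
Vip, chr10:5639128-5639155, plus, 79 bases: gatcactactgTGACGTctttcggggag
Cartpt, chr13:99900777-99900806, minus, 112 bases: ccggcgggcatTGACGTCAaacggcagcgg
Sst, chr16:23890874-23890903, minus, 48 bases: gcctccttggcTGACGTCAgagagagagtt
Pdlim3, chr8:45885428-45885457, plus, 48 bases: ggggaggccagTGACGTCActcgcagcagg
Areg, chr5:91139527-91139556, plus, 61 bases: gggctggtccgTGACGTCAcgggcggtggc
Chat, chr14:32466065-32466092, minus, 172 bases: gtccaatctcaACGTCAccaccacctcc
Th, chr7:142900022-142900051, minus, 45 bases: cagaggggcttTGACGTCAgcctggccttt

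Among the 15 called genes with the highest differences, 14 had a window, and the full 8 letters were in 4 of them (28.6%: Areg, Cartpt, Pdlim3 and Sst), against 267 of 7514 tested genes with a window (3.55%). The shorter letters were in 6 of 14 (42.9%, with Chat and Vip added), against 12.6%. Over all 73 called higher with a window the shares were 8.22% and 12.3%, and over 53 called lower 5.66% and 13.2%, Th, Chgb and Scg2 among the former. The higher shares were thus limited to the few genes at the top. The share of the shorter letters among all genes called higher was close to that of all tested genes. Sst and Chat are among the 31 of the 89 genes called higher that passed the filter only through Ach2. The tested genes are therefore not a like background for the top 15, and no enrichment is read from these shares. The top genes were chosen by their level in these data, and a match of letters is not a site of binding.

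Within Ach2, the neurons were split by Cartpt, a split chosen after the values were seen and given without a test. It had a UMI in 44 neurons and none in 18, at median depths of 3852.5 and 4882.5 UMIs. Sst was seen in 24 of the 44 and 1 of the 18, Calca in 23 and 3, Calcb in 13 and 0, and Areg in 16 and 1. Tm4sf4, a tetraspanin-like membrane protein gene, was seen in 34 and 6, at 12.1 and 0.786 UMIs per 10000. Chat had a UMI in 11 of 44 and 9 of 18, at 0.654 and 2.14. Chat, Slc18a3 and Slc5a7 were all seen in 1 neuron with Cartpt and in 6 without. Npy stood at 3.08 with Cartpt and 7.42 without, Gal at 0.958 and 3.33, and Th at 1.46 and 3.15.

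The split did not hold alike for every gene and source. The pooled level of Vip was 109 with Cartpt and 25.1 without, but in replicate 4 it was 35.8 and 35.3, and 12.4 with Cartpt once shared barcodes were left out. The unmatched neurons carried the pooled value, at 234 with Cartpt and 34.2 without. Chat stood at 0.369 with Cartpt and 2.64 without in replicate 4 and at 0.972 and 2.37 in the unmatched neurons, but at 1.05 and 0 in replicate 1, where 2 neurons were without. At 2000 UMIs a neuron, Sst was seen in 18 of 37 with Cartpt and 1 of 17 without, Calca in 15 and 1, Npy in 13 and 11 and Chat in 3 and 4. All 15 neurons with a shared barcode had a UMI of Cartpt, and without them 29 neurons had one and 18 had none, with Chat in 10 and 9.

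Beyond transmitter and peptide genes, the 15 called genes with the highest differences included Pdlim3, a gene for an actin-associated protein (1.86 UMIs per 10000, log2 difference 4.17), and Areg, for an EGF receptor ligand (1.64, 3.56). Col4a2, a basement membrane collagen, stood at 2.98, 1.75, 1.77, 2.77 and 3.08 in replicates 1 to 5, above the highest noradrenergic profile of 0.394 in every mouse, and its partner Col4a1 was called with it (3.52 and 2.64). Rasgrf1, a Ras exchange factor, had a log2 difference of 3.42, Rgs6, which shortens G protein signals, one of 3.11, and the neuronal splicing factor gene Rbfox3 one of 3.10. Tcerg1l had 28 UMIs in 20 Ach2 neurons and none in 1140 noradrenergic neurons, which is at least 177-fold higher when the noradrenergic neurons are set to 3 counts over the group. Barx2, at 3.19, did not pass the filter without shared barcodes (1.17), and Tm4sf4, at 3.11, was then not called (2.82).

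When all 5 matched mice, with at least 5 neurons each, had to lie outside the noradrenergic profiles, 18 genes were called higher and 26 lower. Without shared barcodes, when replicates 2, 3 and 5 are left with 2, 2 and 4 Ach2 neurons, all 5 mice still lay outside for 7 of the 18 and 12 of the 26. Among the 7 were Vip, Col4a2 and Creb5, a CREB-family factor, whereas Cartpt, Pdlim3 and Areg had no UMI in the unshared neurons of replicate 5. The 3 cholinergic genes were not among them, since at least 1 mouse stood at 0 or within the noradrenergic range for each. Among the 12 were Slc6a2, Myl1, Tenm2, Plcxd3, Cntn1, Rorb and Cplx2, and Th, Asl and Scg2 were among the 26 alone. Of these 12, Myl1 and Tenm2 were then at 0 in all 5 mice. Plcxd3, Cntn1 and Rorb were at 0 in replicates 2, 3 and 5, and Slc6a2 in replicate 2. With 2 to 4 neurons a low gene can fall to 0 by counting alone, so these zeros do not show that a mouse lay lower.

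The genes called lower were led by Myl1, a myosin light chain gene, with no UMI in Ach2 and a mean of 1.03 UMIs per 10000 over the noradrenergic subtypes, at least 11.4-fold lower at 3 counts over the group. Chst1 and Foxo3 had none either and were at least 5.88-fold and 5.75-fold lower. Rxfp1, the relaxin receptor, stood at 0.184 against 2.86 on average (log2 difference -3.38, or -3.13 without shared barcodes), and Itga1, an integrin subunit for collagen, at 0.322 (-3.18). Tenm2, a synaptic adhesion protein gene, had 2 UMIs in the 62 neurons, a ratio of 0.059 to the noradrenergic level with a counting interval of 0.0071 to 0.213. Asl, which makes arginine from argininosuccinate, had a log2 difference of -2.29, and Cplx2, which binds the release machinery, one of -2.28.

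**Figure D3:**
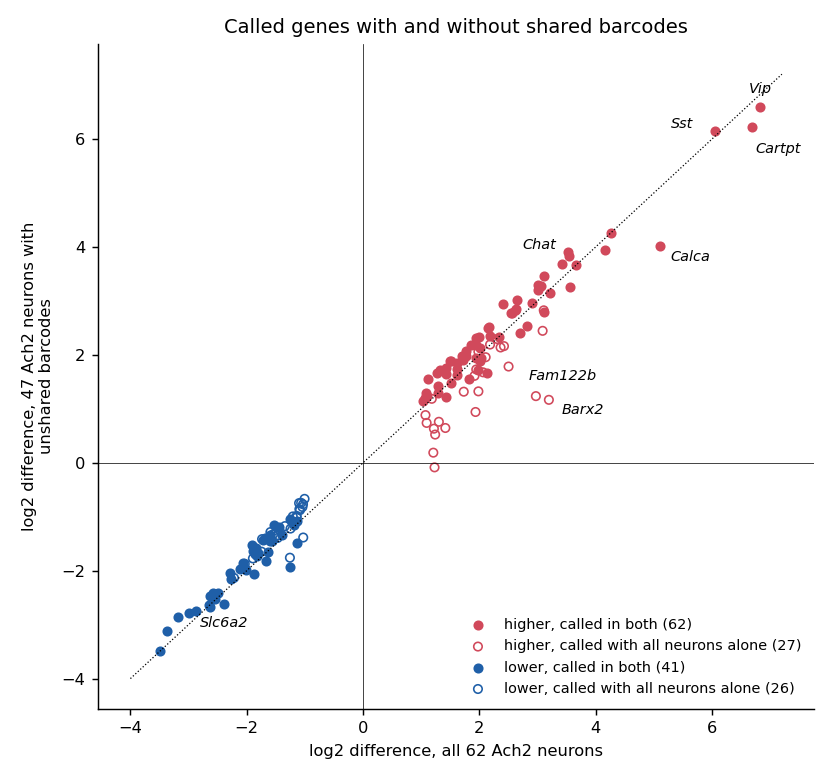
Log2 difference between Ach2 and the noradrenergic subtypes with all 62 neurons (horizontal) and with the 47 neurons of unshared barcodes (vertical), for the genes called with all neurons. Filled points are called both ways (62 higher, 41 lower) and open points only with all neurons (27 and 26); 88 of 89 and 67 of 67 keep their sign.

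Of 28 transcription factors of sympathetic neurons tested, 2 were called higher and 2 lower, with a median log2 difference of -0.41. Over all genes tested, 0.932% were called higher and 0.701% lower. The other 24 factors did not meet the call, which does not place them within the noradrenergic range. Ebf1 stood at 4.76, 3.21, 3.66, 11.6 and 6.47 UMIs per 10000 in replicates 1 to 5, and its highest noradrenergic profile at 4.40 (log2 difference 1.86). Replicates 2 and 3 lay below that profile. Sox11, a factor of immature neurons, stood at 3.02 in Ach2 against 0.608 (2.14), and both genes were called without shared barcodes. Tbx20 had no UMI in Ach2 and was at least 5.42-fold lower. Gata2, called lower at -1.10, was not called without shared barcodes (-0.75). The noradrenergic regulators Phox2a, Hand2 and Isl1 were not called, with log2 differences of 0.07, -0.35 and -0.77. Of 4 Hox genes tested, none was called.

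Among 16 receptors of neurotrophins and GDNF family ligands, 2 were called higher, with a median of -0.44 over the list. Ret, the shared signalling receptor of the GDNF family, stood at 2.11 against 0.621 (log2 difference 1.62), and Gfra2, the neurturin co-receptor that acts with Ret, at 1.86 against 0.420 (1.92). Ret kept the call without shared barcodes and Gfra2 did not (1.61). Cytokines that act through gp130 are known to turn cultured sympathetic neurons cholinergic, and of 8 genes of that pathway tested none was called (median 0.10), Lifr and Cntfr with log2 differences of 0.89 and -0.58. None of 14 genes of BMP signalling (median -0.31) and none of 8 nicotinic and muscarinic receptors (median -0.15) was called. With 0.932% and 0.701% of all genes called, a count of 0 in lists of this size is near the background and is no result about these pathways.

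None of 31 potassium channel genes was called higher and 1 lower, Kcnmb4, a BK channel subunit, at -2.39. Of 22 sodium and calcium channel genes, Cacna1c, an L-type calcium channel subunit, was called higher (1.99), and of 14 glutamate and GABA genes Grin3a, an NMDA receptor subunit (2.70). Of 15 adrenergic, purinergic and peptide receptors, Rxfp1 alone was called, and the median was -1.16, or -1.04 with the 3 genes at 0 set to their bound. None of 14 neurofilament and cytoskeleton genes was called (median 0.00), and Prph, peripherin, had a UMI in all 62 neurons. Over all genes tested, 0.932% were called higher and 0.701% lower. A count of 0 or 1 in lists of this size is no result about these gene families.

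The secretory and adhesion lists were mixed. Beside them, 0.932% of all genes tested were called higher and 0.701% lower, and the small counts below were not tested against these shares. Of 12 granin and prohormone processing genes, Vgf was called higher (2.99 UMIs per 10000, log2 difference 3.01), whereas Scg2 and Chgb were called lower (-1.07 and -1.03) and lost the call without shared barcodes. Of 29 synaptic vesicle genes, Cplx2 and Syt2, a fast calcium sensor, were called lower (-2.28 and -2.01). Of 37 adhesion and guidance genes, Cntn2 was called higher (2.16) and Cntn1, Cdh6 and Tenm2 lower, Cdh6 only with shared barcodes. Necab1 was 1 of 11 genes for calcium-binding proteins and adenylyl cyclases and was called higher (2.42) only with shared barcodes. Of 19 immediate early and heat shock genes, Nr4a1 was called lower (-1.71), with a list median of -0.40. Of 11 markers of noradrenergic subtypes, none was called higher and 1 lower.

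**Figure D4:**
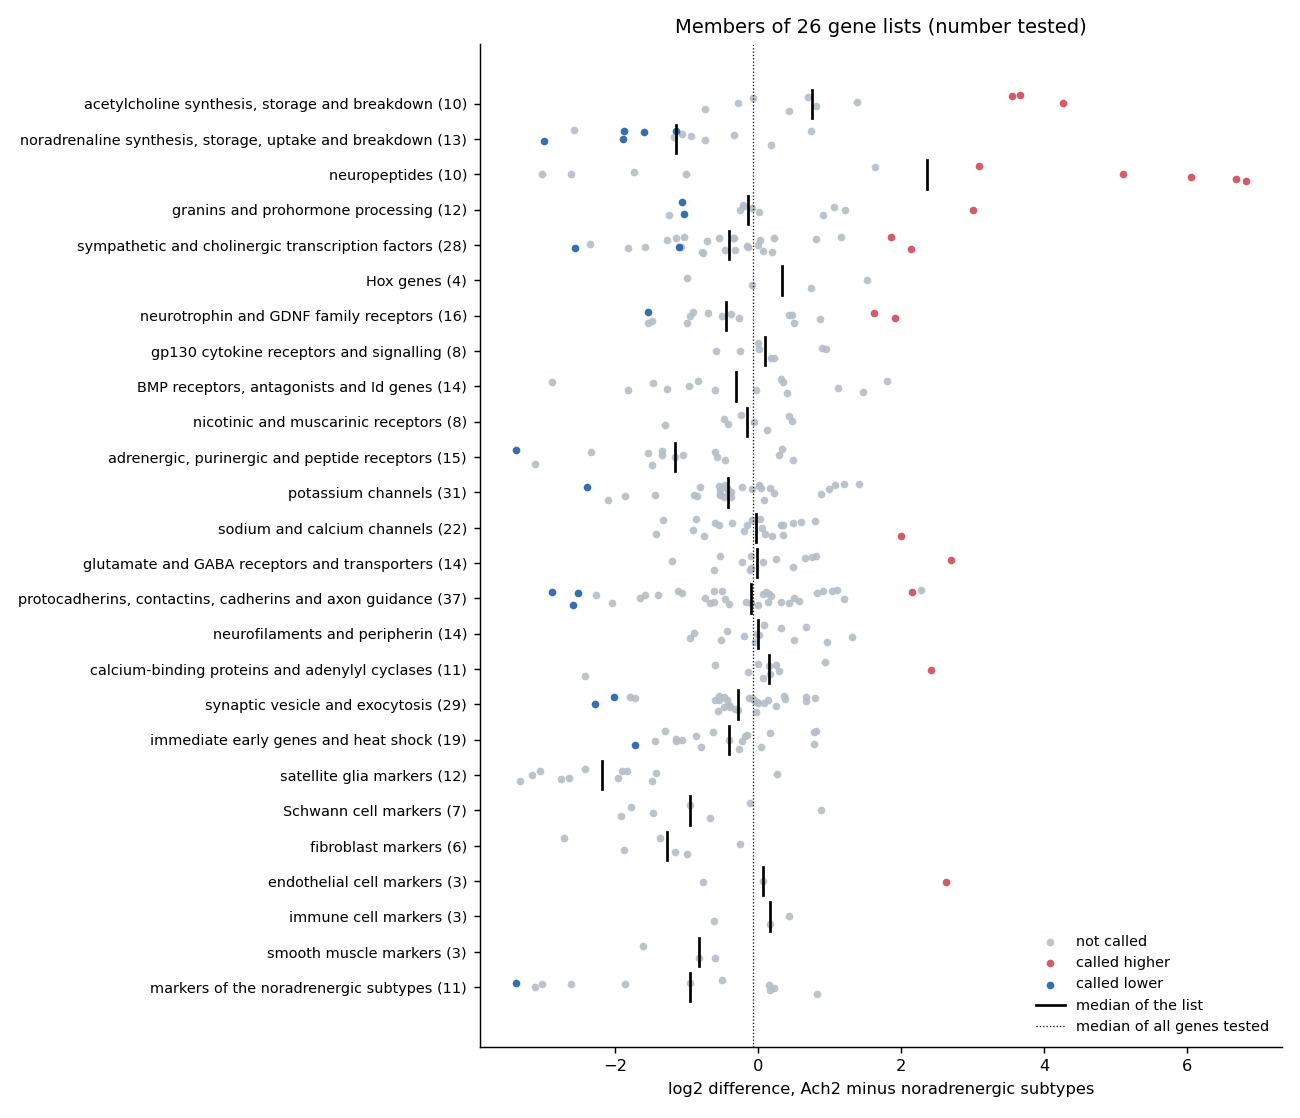
Log2 difference between Ach2 and the noradrenergic subtypes for each tested member of 26 gene lists; red points were called higher, blue lower and grey neither, the black bar is the median of a list and the dotted line that of all genes (-0.06). Acetylcholine and neuropeptide genes hold 3 and 5 red points, noradrenaline genes 5 blue ones, against 0.932% of all genes called higher and 0.701% lower. All 3 red acetylcholine genes and 3 of the 5 red neuropeptide genes passed the filter only through Ach2 and could only come out higher.

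Markers of other cells were low in Ach2, with exceptions. The summed level of 12 satellite glia markers was 14.6 UMIs per 10000 in Ach2, against 10.1 to 18.9 in NA1a, NA1b, NA1c and NA2 and 353 in NA3, and the list median of -2.19 is taken against a mean that includes NA3. Of 7 tested Schwann cell markers none was called, and all 10 summed to 5.41 in Ach2, 2.18 to 3.41 in the other noradrenergic subtypes and 17.2 in NA3. The 10 endothelial markers, of which 5 were detected in Ach2, summed to 5.23 there, 13.8 in the unmatched neurons and 1.47 to 2.11 in the noradrenergic subtypes. Most of this sum was Tm4sf1, the member called higher of 3 tested, at 4.58 in Ach2 and 12.9 in the unmatched neurons, and it lost the call without shared barcodes. Cdh5, Flt1, Emcn, Esam and Cldn5 were at 0 in Ach2. Of 6 fibroblast, 3 immune and 3 smooth muscle markers tested none was called, and the whole lists summed to 1.66, 0.795 and 0.107. With 0.932% of all genes called higher and 0.701% lower, a count of 0 in such short lists is near the background. The part of other cells in the results was not tested, and the methods name no step against doublets.

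The other subtype with a cholinergic name, Ach1 (64 neurons), differed in the markers, given side by side without a test. Vip had a UMI in 40 of its 64 neurons, at 4.42 UMIs per 10000, Slc18a3 in 6 and Chat in none. Its Th stood at 6.87 and its Slc6a2 at 22.8, within or above the noradrenergic range. Neither retrograde reporter was detected in Ach2: GFP and tdTomato each had a UMI in 0 of 62 neurons, a count that leaves room for a share of 4.84%, whereas 6 and 20 of 1140 noradrenergic neurons had one. At this number of neurons no difference in target could be seen.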

How the data were processed

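Stellate ganglion cells of 8 mice were sequenced with 10x Genomics chemistry. The authors aligned reads to GRCm38 with GFP added (Cell Ranger 2.1.1, mm10, Seurat and Scanpy, per the submitters' processing notes), kept cells with 500 to 6000 genes, under 20000 UMIs and under 15% mitochondrial RNA, integrated the mice, clustered the neurons and named the subtypes. Every neuron passed that filter when it was recomputed. The authors deposited ln(1 + UMIs per 10000), a natural log scale, for 19224 genes. UMIs were recovered from the step of each neuron, and 100% of nonzero values lay within 0.01 of a whole number. No doublet step is named and none was applied.

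Levels are means over neurons of UMIs per 10000. Genes with a mean of at least 0.1 over the 6 subtypes were tested, with a pseudocount of 0.1, so that a fold change is on the log2(value + 0.1) scale and understates the change of low genes. Mouse profiles came from matched mice alone and needed at least 10 neurons. No column belongs to another sample. Subtypes of a mouse come from the same animal and were paired in the depth test and in the within-mouse alternative. The main calls and log2 differences were not paired by mouse. The neurons of a matched mouse held 916296 to 1196621 UMIs in all, and those of Ach2 333521. Intervals are exact 95% Clopper-Pearson or Poisson intervals, and the limit of a count of 0 is 3 counts. They cover counting error only.

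Genes were named by rule: the markers, Dbh, Th and Npy, all acetylcholine and noradrenaline genes, in each other list up to 4 called members and the 2 with the highest level, and the 15 highest and 15 lowest called genes. Cntfr, Col4a1, Creb5, Rbfox3, Gal, Isl1, Phox2a and Calcb were added after their values were seen. Members and 26 lists were chosen with earlier results of these data known. Sequences are from RefSeq and positions from GENCODE. Python 3.11.15, NumPy 2.4.6, pandas 2.3.3, SciPy 1.17.1 and matplotlib 3.10.9 were used, and the calls were tested on simulated data. Alternatives were other pseudocounts, filters, scalings and neuron minimums, thinning to 2000 UMIs, the within-mouse comparison, and leaving out mice, NA3, the deepest 10% of neurons and, added after seeing the data, shared barcodes. Some members of the lists are not reported here.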

Additional observations from a re-analysis of the deposited data

Results flagged for a closer look

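Of 33 values compared over the 5 matched mice, 2 had a lowest mouse far from the others by Dixon's criterion, which chance meets in about 1 in 20 groups. The share of Ach2 neurons with a UMI of Vip was 60% in replicate 5 (3 of 5 neurons) and 100% in the other 4 mice. The share with a UMI of Calca was 0% in the same mouse, against 40% in the nearest and 50% in the highest. Both come from the mouse whose 4 unshared neurons also lacked UMIs of Chat, Slc18a3 and Slc5a7. The second rests on shared barcodes, since without them Calca was seen in 0 of 2, 0 of 2 and 0 of 4 neurons of replicates 2, 3 and 5.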

How the results depend on the processing

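Of the numbers of genes called higher and lower (89 and 67), those within 1.5 times of these came from a pseudocount of 0.01 (106 and 74), no filter (111 and 67), matched mice only (97 and 78), summed UMIs (102 and 79), profiles centred on their median gene (86 and 95), no NA3 (113 and 90) and, added after seeing the data, no shared barcodes (115 and 70). The replicate block, which pairs subtypes of 1 mouse, gave 121 and 98 and changed the call of no named gene. A pseudocount of 1 gave 30 and 14, a filter of 0.5 gave 36 and 38, and a minimum of 5 neurons gave 18 and 26, since all 5 mice then had to lie outside. Means of the deposited natural log values gave 12 and 9, the cause of which was not tested. Thinning gave 100 higher and 37 lower, of which 50 and 14 were called without it. Leaving out the deepest neurons gave 153 higher with 1 Ach2 profile left. Leaving out a mouse gave 100 to 192 higher and 82 to 171 lower, the most without replicate 1 (191 and 136) and replicate 4 (192 and 171), when 1 profile remains. Without shared barcodes as well, these were 118 to 237 and 77 to 217. Over 116 named genes and 19 alternatives, no call changed direction, 136 values lost a call and 27 gained one. Vip, Cartpt and Slc6a2 kept theirs in all 19. Slc18a3, Slc5a7, Chat, Sst and Ddc lost it at a minimum of 5 neurons, Slc5a7 also on natural log means (0.88) and Th after thinning (-1.45) and without shared barcodes. Scg2 lost it without any 1 of the 5 mice, Chgb without replicate 1, 3 or 4, Maoa without replicate 2 and Gata2 without replicate 4, while Npy was called lower without replicate 4 (-3.39) or 5 (-2.97), Gal without replicate 4 (-3.48) and Slc18a2 without replicate 2 (-2.59) or 4 (-2.94). The level of Vip of 84.5 was 49.8 in matched mice only and 85.3 to 103 without a mouse, and the share with Th of 43.5% was 27.8% after thinning and 24.2% at 2 or more UMIs. The log2 depth difference turned positive against NA1b without shared barcodes (0.57, 2 mice), against NA1c with at least 10 neurons (0.55), without shared barcodes (1.42) and when 1 mouse was left out (-0.19 to 0.091), and against NA3 with at least 10 neurons (0.31) and without shared barcodes (0.25). Against NA2 it was -0.10 to 0.39 when 1 mouse was left out. A gene at 0 in Ach2 may reach 0.0899 UMIs per 10000, and the spread of Ach2 rests on 2 mice.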
